A study of Mus musculus with 10 samples.

Results

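ATF4 and the stress and amino acid genes that it is known to activate were represented by 22 probe sets of 10 genes among the 22690 probe sets of the array. They were chosen by gene symbol: every probe set annotated to Atf4, Ddit3, Trib3, Asns, Chac1, Psat1, Phgdh, Shmt2, Mthfd2 or Psph alone was taken, whatever its signal. A further 2 probe sets that carried Phgdh beside another symbol were not used. Of the 22, 19 probe sets of 9 genes had a mean intensity of at least 50 over the 10 arrays and were tested. The other 3 were the third Atf4 probe set, the only Chac1 probe set and 1 of 4 Shmt2 probe sets.

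The cells were 32Dcl3, a mouse myeloblast line that depends on interleukin-3 (IL-3) for growth and survival. After removal of the cytokine, transcription was blocked with 10 µg/ml actinomycin D, and each culture was followed at 2 doses of IL-3, 1 ng/ml (IL-3-replete medium) and 0.01 ng/ml (IL-3-deficient medium). RNA was measured at 0 h and after 2 h and 4 h in each medium, which gave 5 groups of 2 arrays, with 1 array of each group in each of 2 experiments. With no new transcription the remaining signal is read as the decay of the RNA, and the comparison asks whether IL-3 slowed it. Some signals rose from 0 h, and the study's methods ascribe values above 0 h to measurement noise. The transcription block was shared by all 2 h and 4 h groups, and no 2 h or 4 h group was measured without it. The array titles place the 0 h sample after actinomycin D and their descriptions place it before exposure, so what the 0 h level stands for is known only to that extent. The 5 arrays of an experiment came from a shared culture of 1 cell line.

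ATF4 is a transcription factor of the integrated stress response. When cells lack amino acids, accumulate unfolded protein or meet other stresses, kinases phosphorylate the initiation factor eIF2, general translation falls and ATF4 is translated through its upstream open reading frames. ATF4 then binds DNA with C/EBP-family partners at composite C/EBP-ATF elements and activates genes for amino acid synthesis and uptake, together with regulators such as CHOP (Ddit3) and TRB3 (Trib3). The arrays measured messenger RNA only, so ATF4 protein and its activity were not observed.

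The composite element was looked for in the promoters of the members, because ATF4 is known to bind DNA at such elements. The letters TGATGNAA were searched on both strands from 250 bases before to 50 bases after the start of each gene (RefSeq, GRCm38.p6), and all 10 members matched a promoter. It was present in 3 of the 10 member genes, Chac1, Trib3 and Asns, and in 4.51% of the 27025 genes (3.97% of 32851 promoters). The 30 bases around each match are printed on the strand of the gene, with the matching letters in capitals.
Chac1: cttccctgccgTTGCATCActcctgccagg
Trib3: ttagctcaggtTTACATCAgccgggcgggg
Asns: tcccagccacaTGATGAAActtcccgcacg
These windows lie at chr2:119351038-119351067 on the plus strand, chr2:152344028-152344057 on the minus strand and chr6:7693214-7693243 on the minus strand. The first base of the match stood at -193 in Chac1, 14 after the start in Trib3 and -23 in Asns. The stricter letters TGATGCAA were found in Chac1 alone among the members and in 1.03% of all genes. A match is a description of the letters and not evidence of binding, and other members may carry an element outside these windows.

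Signals are model-based intensities on a linear scale and are compared within a probe set only. At 0 h the intensities of Atf4 probe set 1448135_at were 3022 and 3634 in experiments 1 and 2, and those of Atf4 probe set 1438992_x_at were 3687 and 3217. Asns 1451095_at, of the asparagine synthetase gene, read 3379 and 3418, and Psph, which encodes the last enzyme of serine synthesis, read 151 and 95.6. Chac1, a glutathione-degrading enzyme, had intensities from 10.4 to 35.7 over the 10 arrays, and the third Atf4 probe set, 1439258_at, from 1.00 to 20.9. These 2 probe sets were under the threshold in every array, so no decay was measured for Chac1. Levels of different genes are not ranked here, since hybridization differs between probes.

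Atf4 messenger RNA fell in both media and lay higher in replete medium. In experiment 1 the intensity of 1448135_at went from 3022 at 0 h to 2583 at 2 h and 1577 at 4 h in replete medium, against 1918 and 1164 in deficient medium. In experiment 2 it went from 3634 to 2115 and 1456 in replete medium, against 1741 and 849 in deficient medium. Replete medium was above deficient medium in 4 of 4 pairs, and the intensities of the groups did not overlap at either time. Expressed as percent of the 0 h signal, the groups did overlap at 2 h. In experiments 1 and 2, 85.5% and 58.2% remained in replete medium at 2 h, and 63.5% and 47.9% in deficient medium. The share of all tested probe sets with 4 of 4 pairs or without overlap was not counted. At 4 h, 46.1% ± 8.56 of the 0 h signal remained in replete medium and 30.9% ± 10.7 in deficient medium (SD, n = 2). Averaged over 2 h and 4 h the log2 difference was 0.48 (SE 0.09, 95% interval 0.29 to 0.66, limma with experiment as a block, Benjamini-Hochberg adjusted p = 0.018). This was 1 of 19 members called higher, against 0.692% of the 11856 probe sets tested. The call depended on single arrays and settings. It was lost when the replete arrays of experiment 1 at 2 h (adjusted p = 0.058) or 4 h (0.054), the replete array of experiment 2 at 4 h (0.077) or the deficient array of experiment 2 at 4 h (0.12) was left out. It was also lost with no filter (adjusted p = 0.13), after 75th-percentile scaling (0.16), with quantile normalization (0.06), without a variance trend (0.21) and without the experiment block (adjusted p = 1). The log2 difference stayed between 0.38 and 0.57 under all 19 alternatives.

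The other bright Atf4 probe set gave the same direction with more scatter. Its suffix, x, marks probes that can also hybridize to other transcripts. The intensity of 1438992_x_at in experiment 1 was 3687 at 0 h, 2853 and 2553 in replete medium and 3021 and 1836 in deficient medium at 2 h and 4 h. In experiment 2 it was 3217 at 0 h, 2366 and 1613 in replete medium and 1931 and 1004 in deficient medium. Replete medium was above deficient medium in 3 of 4 pairs, the exception being 2 h of experiment 1. The intensities of the groups overlapped at both times, with experiment 1 higher throughout. Averaged over the times it differed by 0.34 on the log2 scale (SE 0.09, 95% interval 0.15 to 0.53) and did not pass the test (limma, adjusted p = 0.11, range 0.037 to 1 over the alternatives).

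Split by time, the difference was clearest at 4 h. There 1448135_at differed by 0.60 on the log2 scale (SE 0.12, limma adjusted p = 0.049) and 1438992_x_at by 0.57 (SE 0.12, adjusted p = 0.065), so that 1 of 19 members was called higher, against 0.388% of all tested. The call of 1448135_at at 4 h was lost without any one of the 4 arrays of that time, with adjusted p up to 0.42. It was also lost with a pseudocount of 64 (adjusted p = 0.071), no filter (0.25), 75th-percentile scaling (0.27), quantile normalization (0.14), no variance trend (0.38) and no experiment block (1). Probe set 1438992_x_at was called in 7 of 19 alternatives. At 2 h the log2 differences were 0.35 and 0.10, no member was called by limma, 2 had an unadjusted p under 0.05, and 0.0590% of all tested were called higher. The change of the IL-3 difference between the times was 0.25 and 0.47 on the log2 scale for the Atf4 probe sets (limma adjusted p = 0.94 and 0.86). No probe set of the array passed this test (0% of all tested), and 2 members had an unadjusted p under 0.05, so a difference between 2 h and 4 h was not shown.

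**Figure D1:**
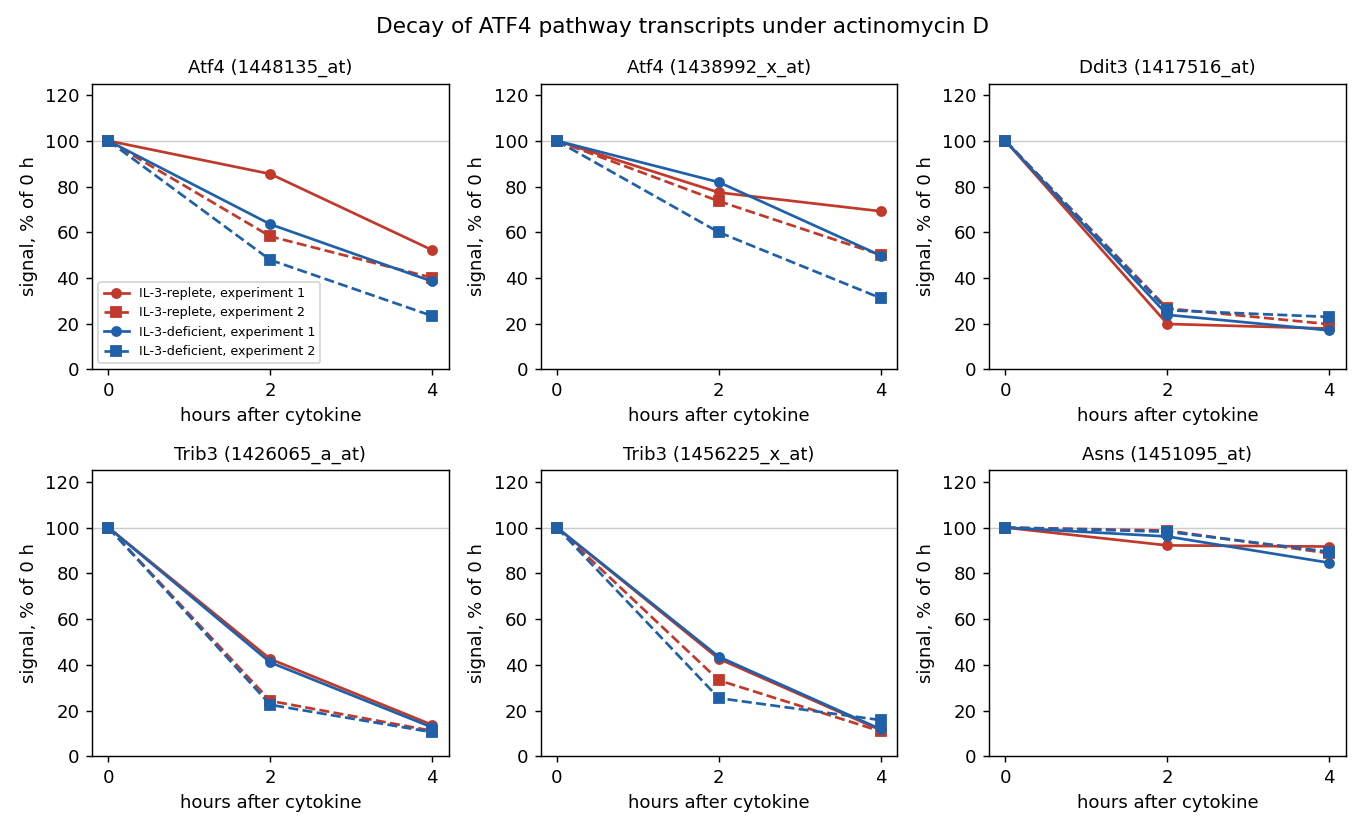
Remaining signal in percent of that experiment's 0 h array (vertical axis) over the hours from cytokine addition (horizontal axis) for 6 probe sets, with replete medium in red, deficient medium in blue, experiment 1 as circles with solid lines and experiment 2 as squares with dashed lines. In replete medium Atf4 1448135_at stayed above its deficient curve in both experiments. The Ddit3 and Trib3 curves fell steeply in both media, and the lowest value of Asns 1451095_at was 84.6%.

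Half-lives, fitted in each experiment as a log-linear fall through the 0 h value, followed the same order. The half-life of Atf4 1448135_at was 4.75 h in replete and 2.93 h in deficient medium in experiment 1 and 2.92 h and 1.90 h in experiment 2. That of 1438992_x_at was 6.99 h and 4.35 h in experiment 1 and 4.11 h and 2.44 h in experiment 2. For each Atf4 probe set the longer half-life in replete medium was seen in both experiments, and the deficient value of experiment 1 was just above the replete value of experiment 2. Scaling the arrays to a common 75th percentile lengthened the mean half-lives, so the absolute values depend on scaling. For 1448135_at they became 8.54 h in replete (13.1 h and 4.01 h in experiments 1 and 2) and 3.77 h in deficient medium (5.28 h and 2.26 h). For 1438992_x_at they became 58.0 h in replete (109 h and 6.62 h) and 7.91 h in deficient medium (12.8 h and 3.07 h). The experiments thus differed widely under this scaling.

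The g_score, the measure defined in the study's methods, is the area between the replete and deficient decay curves divided by a local estimate of its spread between the experiments. Atf4 1448135_at scored 2.34 and ranked 34th of 22690, and 1438992_x_at scored 1.42 and ranked 197th. Mthfd2 1419253_at, a probe set of the mitochondrial folate enzyme gene, scored 0.76 and ranked 919th. As deposited, these were the 3 of 22 member probe sets within the first 1000 of 22690 ranks, and 2 of them were of Atf4. After 75th-percentile scaling the count was 2, and Mthfd2 1419253_at scored -1.57, although its log2 IL-3 difference under that scaling was 0.09. With a single experiment the count was 1 (experiment 1) or 2 (experiment 2), and Mthfd2 1419253_at ranked 1264th and 1349th. Trib3 scored 0.16 and 0.18, Ddit3 -0.16 and Psph -1.75. The score limits ratios above 1 in the replete curve only, so a probe set whose signal rises from 0 h can score below 0. With no limit Psph scored 0.28, with the limit on both curves 0.00, and its log2 IL-3 difference was 0.02. The 2 Asns probe sets ranked 5381st and 5481st. The dim Atf4 probe set scored -0.89.

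Ddit3 and Trib3 had shorter half-lives than Atf4 in both experiments and both media, and neither passed the test for IL-3. Ddit3 encodes CHOP, a C/EBP-family factor known to promote cell death in prolonged stress. Its intensity in experiment 1 was 665 at 0 h, 132 and 119 in replete medium and 159 and 114 in deficient medium at 2 h and 4 h. In experiment 2 it was 976 at 0 h, 261 and 194 in replete medium and 253 and 224 in deficient medium. Most of the fall was complete by 2 h, when 23.3% ± 4.81 of the signal remained in replete and 24.9% ± 1.46 in deficient medium (SD, n = 2). Between 2 h and 4 h Ddit3 changed by -0.27 in replete and -0.30 in deficient medium on the log2 scale (limma adjusted p = 0.24 and 0.18). The IL-3 difference over both times was -0.08 (95% interval -0.31 to 0.14, limma adjusted p = 0.91).

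Trib3 encodes a pseudokinase that is known to bind ATF4 and CHOP and to dampen their activity. Probe set 1426065_a_at read 816 at 0 h in experiment 1, 347 and 112 in replete medium and 335 and 103 in deficient medium at 2 h and 4 h, and 1379, 334, 153, 311 and 145 in the same order in experiment 2. The 2 curves nearly coincided within each experiment. Probe set 1456225_x_at read 1382, 589, 158, 602 and 164 in experiment 1 and 1782, 592, 194, 453 and 281 in experiment 2. Unlike Ddit3, Trib3 kept falling between 2 h and 4 h, to 12.4% ± 1.84 and 11.2% ± 0.359 of the 0 h signal in replete and 11.5% ± 1.47 and 13.8% ± 2.80 in deficient medium (SD, n = 2). The IL-3 differences were 0.08 (95% interval -0.20 to 0.36) and -0.05 (95% interval -0.34 to 0.24) on the log2 scale (limma adjusted p = 0.93 and 0.96). The lower bound for Atf4 1448135_at, 0.29, lay above the upper bound for Ddit3 and inside the interval of 1426065_a_at, and the difference between genes was not tested.

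Mean half-lives were 1.45 h ± 0.105 in replete and 1.51 h ± 0.155 in deficient medium for Ddit3, and 1.31 h ± 0.172 and 1.27 h ± 0.155 for Trib3 1426065_a_at (SD, n = 2). Since Ddit3 fell little after 2 h, 1 exponential describes it poorly, and from 2 h alone its half-life was 0.954 h and 0.997 h. In deficient medium, 4 member probe sets had half-lives under 4 h in both experiments, against 17.3% of all tested, and in replete medium 3 members did, against 15.3%.

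**Figure D2:**
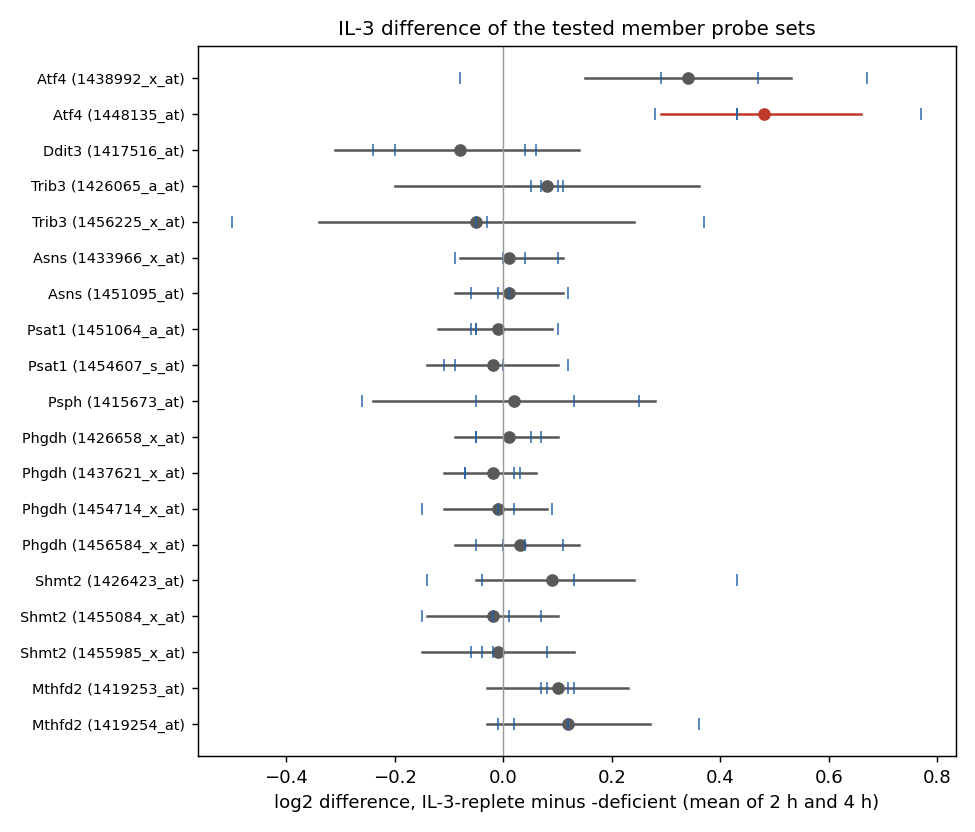
Log2 difference between replete and deficient medium, averaged over 2 h and 4 h (horizontal axis), for the 19 tested member probe sets (rows), with the limma estimate as a circle, its 95% interval as a line and the 4 pairs of arrays as blue ticks. The only called probe set, Atf4 1448135_at, is in red at 0.48, and the enzymes lie between -0.02 and 0.12.

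The falls from 0 h were read against the share of all tested probe sets that fell. From 0 h to 2 h in deficient medium, 5 of 19 members fell, against 23.0% of all tested, and these were the 5 probe sets of Atf4, Ddit3 and Trib3. The log2 changes were -1.92 for Ddit3, -1.67 and -1.56 for Trib3 and -0.85 and -0.51 for Atf4 (limma adjusted p from 1.8e-07 to 0.0059). In replete medium the same 5 probe sets fell at 2 h, against 22.6% of all tested, by -2.02, -1.60, -1.39, -0.50 and -0.40 in the same order of genes. At 4 h in replete medium the 5 had fallen again, against 35.4% of all tested, with log2 changes of -2.88 and -3.05 for Trib3, -2.29 for Ddit3 and -1.12 and -0.76 for Atf4. At 4 h in deficient medium 7 members had fallen, against 38.3%, the 5 regulators and both Asns probe sets. Trib3 stood at -2.96 and -2.78, Ddit3 at -2.22 and Atf4 at -1.72 and -1.33. Relative to the median of all tested probe sets, which moved by -0.12, these changes were -2.84 and -2.66, -2.10, and -1.60 and -1.21. From 2 h to 4 h, 4 members fell in deficient medium, against 18.9% of all tested, and 3 in replete medium, against 18.7%. Both sets held the 2 Trib3 probe sets and Atf4 1448135_at, and the fourth in deficient medium was the other Atf4 probe set. The Atf4 falls at 2 h depended on single arrays and on the processing, and none was called without the experiment block. Without the 0 h array of experiment 2 only that of 1448135_at in deficient medium stayed called, 1438992_x_at was also lost without the deficient 2 h array of experiment 2 or the replete 2 h array of experiment 1, and 1448135_at in replete medium without the replete 2 h array of experiment 2 (limma adjusted p from 0.058 to 0.34 over these cases). With 75th-percentile scaling 1438992_x_at was lost at 2 h in deficient (limma adjusted p = 0.3) and replete medium (0.55), and 1448135_at in replete medium (0.27). These calls were also lost with no variance trend (0.063, 0.13 and 0.058). For 1438992_x_at in replete medium the same held with no filter (0.08) and quantile normalization (0.082). The scaling also removed the replete falls of 1438992_x_at over 4 h (0.12) and of 1448135_at from 2 h to 4 h (0.063). Comparisons with 0 h share the same 0 h arrays.

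**Figure D3:**
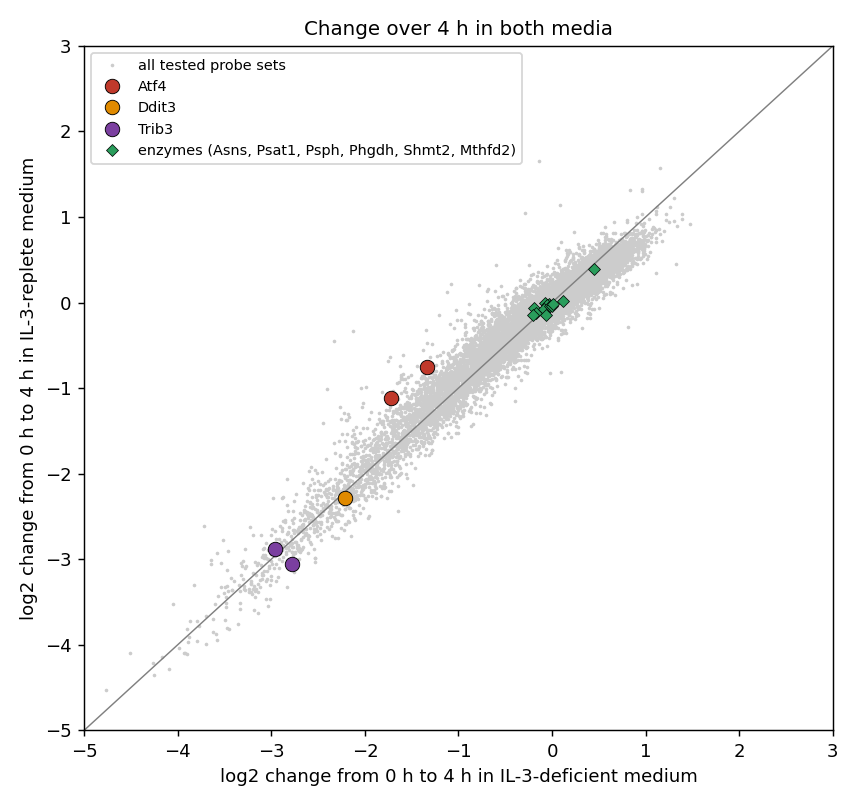
Log2 change from 0 h to 4 h in replete medium (vertical axis) against that in deficient medium (horizontal axis), with all tested probe sets in grey, members in colour and the line of equal change. The Atf4 points lie above the line (-1.12 against -1.72 and -0.76 against -1.33), the Ddit3 and Trib3 points close to it, and the enzymes near 0.

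As deposited, the signals of the biosynthetic enzymes stayed near their 0 h level for 4 h. After 75th-percentile scaling, which moved the median change of all tested probe sets over 4 h from -0.12 to 0.30 in deficient and from -0.10 to 0.31 in replete medium, all 14 enzyme probe sets were called higher at 4 h in each medium, so the direction of their change from 0 h depends on the scaling. The share of all tested probe sets called higher under that scaling was not counted, so this count does not set the enzymes apart. Phgdh, Psat1 and Psph catalyse the successive steps from a glycolytic intermediate to serine, Shmt2 and Mthfd2 pass its one-carbon unit into mitochondrial folate, and Asns makes asparagine. Across the 13 tested probe sets of these genes other than Psph, single arrays lay between 82.3% and 129% of the 0 h array of their experiment. The 14 enzyme probe sets had IL-3 differences from -0.02 to 0.12 on the log2 scale, all intervals lay between -0.24 and 0.28, and none was called (smallest limma adjusted p 0.72, none with an unadjusted p under 0.05). The median of these differences was 0.01, beside -0.01 over all tested.

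Among the enzymes, Asns gave the only falls that were called. The intensity of 1451095_at went from 3379 to 3098 in replete and 2857 in deficient medium by 4 h in experiment 1, and from 3418 to 3029.9 and 3056 in experiment 2. All 4 h arrays lay below the 0 h arrays, in both media. In deficient medium the log2 changes were -0.20 and -0.18 for the 2 probe sets (limma adjusted p = 0.017 and 0.032), and in replete medium they were -0.15 and -0.12 (adjusted p = 0.075 and 0.13). The median of all tested probe sets fell by 0.12 over the same interval in deficient medium, so the Asns changes relative to it were -0.08 and -0.05. With a common 75th percentile the direction turned, to 0.24 and 0.27 (adjusted p = 0.024 and 0.014). Neither Asns fall was called when the 0 h array or the deficient 4 h array of experiment 1 was left out, and the smaller one was also lost without either deficient 2 h array or the 0 h or deficient 4 h array of experiment 2. Both calls were also lost with scaling to Gapdh (adjusted p = 0.068 and 0.12), quantile normalization (0.11 and 0.22), no variance trend (0.11 and 0.16) and no experiment block (0.12 and 0.26), and the smaller with no filter (0.06).

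Psph was the 1 member called higher at 4 h in deficient medium, against 15.3% of all tested. Its intensity was 151 and 95.6 at 0 h, 189 and 139 in replete medium and 171 and 170.3 in deficient medium at 4 h. The deficient arrays at 4 h lay above both 0 h arrays, while in replete medium 1 array did not exceed the 0 h array of experiment 1. The log2 change was 0.45 in deficient medium (SE 0.17, limma adjusted p = 0.038) and 0.39 in replete medium (SE 0.17, adjusted p = 0.083). It rested in part on the 0 h array of experiment 2, without which it was 0.26 (adjusted p = 0.35), and on its deficient 4 h array, without which it was 0.29 (adjusted p = 0.28). It was also not called without either deficient 2 h array (adjusted p = 0.051 each), with no filter (0.087) or without the experiment block (0.28), and it was 0.85 after 75th-percentile scaling and 0.90 after quantile normalization. The study's methods ascribe values above 0 h to measurement noise, since transcription was blocked. Whether this holds for Psph was not tested.

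Mthfd2 and Shmt2 gave the other IL-3 differences furthest from 0 among the enzymes. Mthfd2 1419253_at lay higher in replete medium in 4 of 4 pairs, by 0.10 on the log2 scale, and 1419254_at differed by 0.12 (limma adjusted p = 0.72 each). The intensity of 1419253_at over the 10 arrays ranged only from 1524 to 1851. For Shmt2 1426423_at the difference was 0.28 at 2 h (adjusted p = 0.59), and over both times it was 0.09 (adjusted p = 0.79), without support from the other Shmt2 probe sets, which differed by -0.02 and -0.01.

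**Figure D4:**
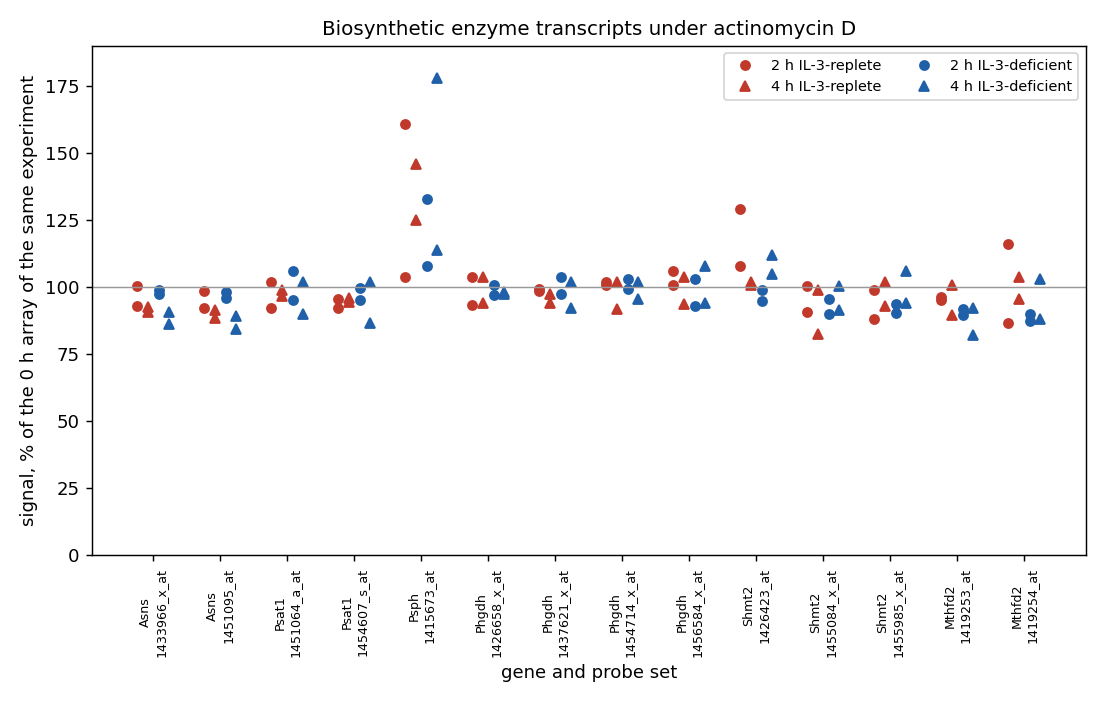
Remaining signal in percent of that experiment's 0 h array (vertical axis) for the 14 tested enzyme probe sets (horizontal axis), with each array shown as a point, replete medium in red, deficient medium in blue, 2 h as circles and 4 h as triangles. All probe sets other than Psph stayed between 82.3% and 129%, and Psph ranged from 104% to 178%.

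Among 110 further genes on the array, drawn up as 7 lists around the pathway, 1 probe set was called for IL-3. The share of all tested probe sets called higher, 0.692%, is the background for these counts. Of the further ATF4 and amino acid response targets 0 of 44 tested probe sets (24 genes) were called in either direction over both times, and the same held for 0 of 23 (13 genes) of the eIF2 kinases, eIF2B and their regulators, 0 of 32 (18 genes) of the cytoplasmic aminoacyl-tRNA synthetases, 0 of 13 (5 genes) of the other one-carbon enzymes, 0 of 20 (13 genes) of the ATF, CREB and C/EBP factors and 0 of 38 (19 genes) of the ATF6 and XBP1 branch. The medians lay between -0.05 and 0.06 on the log2 scale, beside -0.01 over all tested. Of the ATF4 partners and inhibitors 1 of 9 (6 genes) was called, Nfe2l2, the oxidative stress factor NRF2. It differed by 0.50 (SE 0.11, limma adjusted p = 0.049, range 0.029 to 1), with 11.9% ± 0.299 of the 0 h signal at 4 h in replete and 7.52% ± 0.788 in deficient medium (SD, n = 2).

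Other genes of these lists did not pass. Ppp1r15a, the eIF2 phosphatase subunit GADD34, differed by 0.56 (SE 0.14, limma adjusted p = 0.11, range 0.015 to 1), with 51.0% ± 27.4 left in replete and 32.5% ± 12.4 in deficient medium at 4 h (SD, n = 2). Jdp2, a repressor of the AP-1 family, differed by 0.26 and Cebpa, a myeloid C/EBP factor, by 0.38 (adjusted p = 0.41 and 0.45). Eif2s2, a subunit of eIF2, differed by 0.15, and Farsa and Farsb, the phenylalanyl-tRNA synthetase subunits, by 0.22 each. Dnajc3, an inhibitor of eIF2 kinases, and Hspa5, the chaperone BiP, differed by 0.22 and 0.13. These are the probe sets with the smallest p of each gene. The others of Eif2s2 lay at 0.12, 0.06, -0.02 and 0.01, those of Farsb at 0.19 and 0.14, those of Dnajc3 at 0.27, 0.17, -0.05 and -0.07 and that of Hspa5 at 0.03. Sfxn1, the mitochondrial serine carrier, and Shmt1 differed by -0.21 and -0.14, and their other probe sets lay between -0.11 and 0.01. In deficient medium over 4 h, against 38.3% of all tested called lower and 15.3% called higher, all 9 tested probe sets of the partners and inhibitors fell. Of the further targets 20 of 44 fell and 3 rose, of the eIF2 kinases and eIF2B 12 of 23 fell and 4 rose, and of the synthetases 18 of 32 fell and 1 rose. Of the other one-carbon enzymes 6 of 13 fell and 1 rose, of the ATF, CREB and C/EBP factors 14 of 20 fell and 2 rose, and of the ATF6 and XBP1 branch 10 of 38 fell and 6 rose.

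The probe sets whose pattern was most like that of Atf4 1438992_x_at were of Rxylt1, Chic2, Bysl, Pdcl and Ugcg, with Pearson r from 0.970 to 0.976 over the 10 arrays after removal of each experiment's mean. The other bright Atf4 probe set ranked 11th, at 0.97. Trib3 reached 0.87 and 0.81, both Asns probe sets 0.86 and Ddit3 0.71, while the correlation of Psph was -0.75. All of these points share the arrays and the common fall from 0 h, so they are a description only.

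Some cell state markers that were not members differed between the experiments, and others differed less. The 0 h intensity of Mpo, the granule peroxidase of myeloblasts, was 3409 in experiment 1 and 509 in experiment 2, and that of Fcer1a, a basophil and mast cell receptor chain, 25.4 and 155. Mcpt8, on the same list as Fcer1a, read 54.5 and 188, Cpa3 1005 and 1412 and Ms4a2 16.3 and 11.4. Ctsg of the myeloblast list read 4455 and 3465. Kit, Cd34 and Elane, which often mark early myeloid cells, stayed under 50 on all arrays, whereas Prtn3, Ctsg and Myb were bright. Csf2rb, Il3ra and Mcpt8 stayed above 50, and Csf1r of macrophages and Cd79b of lymphoid cells lay on both sides of 50. Adgre1 of macrophages (2581 to 3310.3) and Cpa3 of mast cells (882 to 1752) were also above 50 on all arrays, as were Ighm of B cells (333 to 611) and Cd68 of macrophages (119.5 to 436). Ms4a2 of mast cells (5.79 to 24.4), Cd3e, Cd3g and Cd79a of lymphoid cells, Hba-a1, Epor and Klf1 of erythroid cells and C1qa of macrophages stayed under 50 on all arrays. In bulk RNA a smaller share of a cell type and less RNA per cell cannot be told apart. Whether these differences bear on the Atf4 values was not tested. Within the experiments Atf4 1448135_at differed between replete and deficient medium by 0.43 and 0.43 (2 h and 4 h) in experiment 1 and by 0.28 and 0.77 in experiment 2 on the log2 scale.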

How the data were processed

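RNA from the 32Dcl3 cells was measured on Affymetrix mouse expression arrays. The deposited intensity values are model-based expression indices on a linear scale, which the authors computed with dChip from all 10 arrays together. Its version is not stated. No further scaling was applied. Of the probe sets, 20393 carried 1 gene symbol, 691 several and 1606 none.

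Intensities were transformed as log2(intensity + 16), which understates changes of dim probe sets, and the 11856 probe sets that averaged 50 or more were tested with limma 3.58.1 in R 4.3.3 (5 groups, experiment as a block, variance trend, Benjamini-Hochberg adjusted p of 0.05 over all tested). The numbers pair the arrays because each experiment was 1 divided culture, and deviations of same-numbered arrays correlated at 0.762 to 0.887 across groups. With experiment as a block, p-values measure how the differences between groups varied between the 2 experiments. This spread was estimated over all 5 groups together and moderated by limma. The g_score was computed after the study's supplemental methods, with ratios above 1 limited in the replete curve only. The fit was tested on simulated data. All member probe sets are named. From each further list the probe sets that passed, or else the 2 genes with the smallest p, are named. Likeness to Atf4 used the probe set with the highest mean intensity. Members and lists were chosen with earlier results of these data known. Alternatives changed the pseudocount, filter, scaling, block and variance trend and left out each array. Precision is limited by the number of arrays.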

Additional observations from a re-analysis of the deposited data

Results flagged for a closer look

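For 3 of the 19 tested member probe sets, all of enzymes, the difference between replete and deficient medium changed sign. It had one sign in both experiments at 2 h and the other sign in both at 4 h. The share of all tested probe sets with this pattern was not counted, and 14 of the 19 were of enzymes, so the count does not set these members apart. The change of the difference from 2 h to 4 h was -0.37 on the log2 scale for Shmt2 1426423_at, -0.12 for Shmt2 1455084_x_at and -0.11 for Phgdh 1456584_x_at. None of the 3 passed limma's test of this change (smallest adjusted p 0.86). Some of the signs rest on differences near 0 in experiment 1. Shmt2 1455084_x_at differed by 0.01 at 2 h, and Phgdh 1456584_x_at by 0.00 at 4 h (intensity 2063 in replete and 2068 in deficient medium).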

How the results depend on the processing

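The falls of Ddit3 and Trib3 from 0 h to 4 h were called under all 19 alternatives. Without the replicate block, that is without the experiments as pairs, 0 members were called for IL-3 over both times or at 4 h, 2 and 5 for the changes to 2 h and 4 h in deficient medium, 1 for 2 h in replete medium and 0 from 2 h to 4 h in either medium. For IL-3 over both times and at 4 h, 0 members were called with no filter, the 75th percentile, quantile normalization or no variance trend, and at 4 h also with a pseudocount of 64, while a filter at 200 gave 2 at 4 h. Leaving out 1 array gave 0 to 2 for both. The 75th percentile, which moved the median change of all tested probe sets over 4 h to 0.30 in deficient and 0.31 in replete medium, gave 13 (9 higher, 4 lower) and 19 members (14 higher, 5 lower) at 2 h and 4 h in deficient and 11 (8 higher, 3 lower) and 18 (14 higher, 4 lower) in replete medium, quantile normalization gave 8 (3 higher, 5 lower) at 4 h in replete medium, and no variance trend gave 3 at 2 h in replete medium. Leaving out 1 array gave 3 to 5 at 2 h in replete medium. The shares of all tested probe sets called under these alternatives were not counted. Without a limit on ratios above 1, 5 of 22 member probe sets were in the first 1000 of 22690 by g_score, and single experiments gave 1 to 2. The stricter motif gave 1 gene.

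Differences near 0 changed sign. Leaving out 1 array moved the IL-3 difference over both times between -0.06 and 0.10 for Psph, between -0.04 and 0.20 for Trib3 1426065_a_at and between -0.24 and 0.13 for Trib3 1456225_x_at. For Phgdh the ranges were -0.02 to 0.03 (1426658_x_at), -0.05 to 0.00 (1437621_x_at), -0.05 to 0.03 (1454714_x_at) and 0.00 to 0.05 (1456584_x_at). Both Asns probe sets ranged from -0.01 to 0.04, Psat1 from -0.04 to 0.01 and from -0.08 to 0.04, and Shmt2 from -0.06 to 0.02 (1455084_x_at) and from -0.03 to 0.01 (1455985_x_at). With quantile normalization Psph was at -0.01, with the 75th percentile Phgdh 1426658_x_at was at -0.01 and Asns at 0.00, and with scaling to Gapdh 1 probe set each of Psat1, Phgdh and Shmt2 was at 0.01. The lowest and highest values of Atf4 1438992_x_at at 2 h were -0.06 and 0.27. With the 75th percentile the changes of Asns over 4 h in deficient medium were 0.27 and 0.24. The g_score of Mthfd2 1419253_at was then -1.57, while its log2 IL-3 difference kept its sign, at 0.09. The score limits ratios above 1 in the replete curve only, and under that scaling no fall was fitted for this probe set in either medium. The causes were not tested. The precision of every value rests on 2 experiments, and probe sets under an intensity of 50 give no decay.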
